A study of Trichoderma reesei RUT C-30 with 16 samples.

Results

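Of the 10008 genes counted in *Trichoderma reesei*, 79 combined a high transcript level in lactose with a low level in both glucose and lactose with dithiothreitol (DTT). They were chosen by their CPM, the count of a gene per 1000000 counts of its library. A member had a log2 ratio of at least 2 for lactose over glucose and of -2 or less for lactose with DTT over lactose, from means over 4 libraries with 1 CPM added, and its lowest lactose library lay above its highest glucose library. Of all genes, 1.19% reached the first limit, 5.94% the second and 0.879% both, and 0.869% (87 genes) also kept the libraries apart. From these, 8 were set aside by name, among them the cellobiohydrolase gene cel7a (cbh1, TrG0022C) and the β-glucosidase gene cel3a (TrC1551C). Since glucose, lactose and lactose with DTT chose the genes, their ratios are given as descriptions, with no test.

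*T. reesei* is a soil fungus that secretes cellulases and hemicellulases, and lactose is a soluble inducer of these enzymes. Transcription of most of them depends on the activator Xyr1, while glucose represses them through Cre1, whose gene is truncated in Rut-C30. DTT is a reductant that breaks disulfide bonds and so hinders protein folding in the endoplasmic reticulum. Cells answer with the unfolded protein response, which raises folding helpers such as the chaperone gene bip1, and in filamentous fungi the transcripts of many secreted enzymes decline under such secretion stress.

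Cultures of Rut-C30, a hyperproducing mutant lineage, and of Δ*res2*, the same strain with *res2* replaced by a hygromycin resistance cassette through CRISPR-Cas9, were grown on glucose and then fed with glucose or lactose. They were sampled without DTT (GC for glucose, LC for lactose) or 2 h after 10 mM DTT was added (GD and LD). Each of the 8 groups of strain and condition had 2 cultures, so each condition had 4 libraries, and 1 transformant line stood for the deletion. Fewer expressing hyphae and less transcript per hypha cannot be told apart in such bulk samples.

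The 16 libraries held 20351784 to 35679977 counts. The label of the deletion could be checked only indirectly, because no source used here pairs *res2* with a gene of the count tables. TrA1112W, picked out after its values were seen, was the 1 gene with at most 3 counts in each Δ*res2* library (0 to 2) and at least 100 in each Rut-C30 library (2900 to 7046). bip1 (TrG0399C) ranged from 605 to 1104 CPM in GC and from 12927 to 25151 CPM in GD, and from 2650 to 3257 CPM in LC and 23907 to 27605 CPM in LD, so that the libraries with and without DTT did not overlap. The 2 Rut-C30 GC libraries stood apart in the genes described here. Between them, the median absolute log2 difference was 3.77 for 68 members, against 0.34 for 7626 genes in the same comparison. Genes averaging fewer than 100 normalized counts across the 16 libraries were left out here, and members could reach this limit through LC. In the other 7 groups the median of the 68 members lay between 0.06 and 0.90. With no gene left out, the median log2 difference of replicate 2 over replicate 1 of Rut-C30 GC was 2.40 for the members on the CPM + 1 scale (0.11 for all genes). Of the 79 members, 75 were higher in replicate 2 than in replicate 1 of Rut-C30 GC (59.7% of all genes were), and 28 were over 10-fold higher on the CPM + 1 scale (0.6% of all genes).

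The 79 genes took 14.2% to 16.3% of all counts in the LC libraries. In LD their share was 0.245% to 0.264%, and in GD it was 0.0613% to 0.0765%. In GC it was 0.104% and 1.22% in Rut-C30 and 0.574% and 0.433% in Δ*res2*. The LC share thus lay above that of every other library, and the GD libraries had the lowest shares of the 4 conditions. Of the members, none was under 1 CPM in LC, while 11 to 38 were in GC, 43 to 47 in GD and 18 to 21 in LD.

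**Figure D1:**
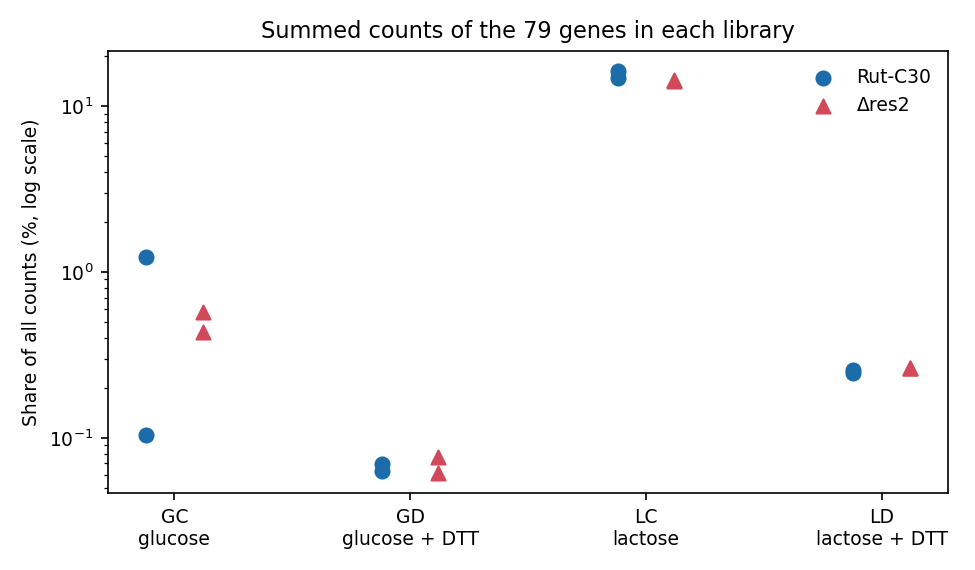
Share of all counts that fell on the 79 genes (%, log scale) in each of the 16 libraries, by condition and strain, with 1 point for each library. The 4 LC libraries lie between 14.2% and 16.3%, the LD libraries between 0.245% and 0.264%, and the Rut-C30 GC libraries at 0.104% and 1.22%.

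Over the members, the median log2 ratio on the CPM + 1 scale was 3.24 for LC/GC (2.02 to 7.21) and -4.13 for LD/LC (-8.12 to -2.04), against -0.42 and 0.01 over all 10008 genes. Scaling the library sizes by TMM instead of totals changes the mean scale of LC over GC by 0.44 on the log2 scale, of LD over LC by -0.14 and of GD over GC by 0.36, before 1 CPM is added. The lowest LC library lay above the highest LD library for all 79 genes (31.1% of all genes), and above the highest GD library for 78 (20.9% of all genes). The rule, with its limit of -2 for LD/LC, made the first of these nearly certain in advance. LC was also chosen high, which favours the second. The genes nearest to the lactose limit inside the set were TrG0050C (2.02), TrD1290C (2.03) and TrE0086W (2.05), and the nearest outside were TrB0777W (1.99), TrA1552W (1.97) and TrG0353W (1.96). At the DTT limit, TrG1010C (-2.04), TrC0664C (-2.04) and TrC0341W (-2.06) were just inside, and TrE1266C (-1.89), TrB1899C (-1.88) and TrD0388W (-1.31) were outside. TrA2098C met both limits but not the separation of its LC and GC libraries.

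**Figure D2:**
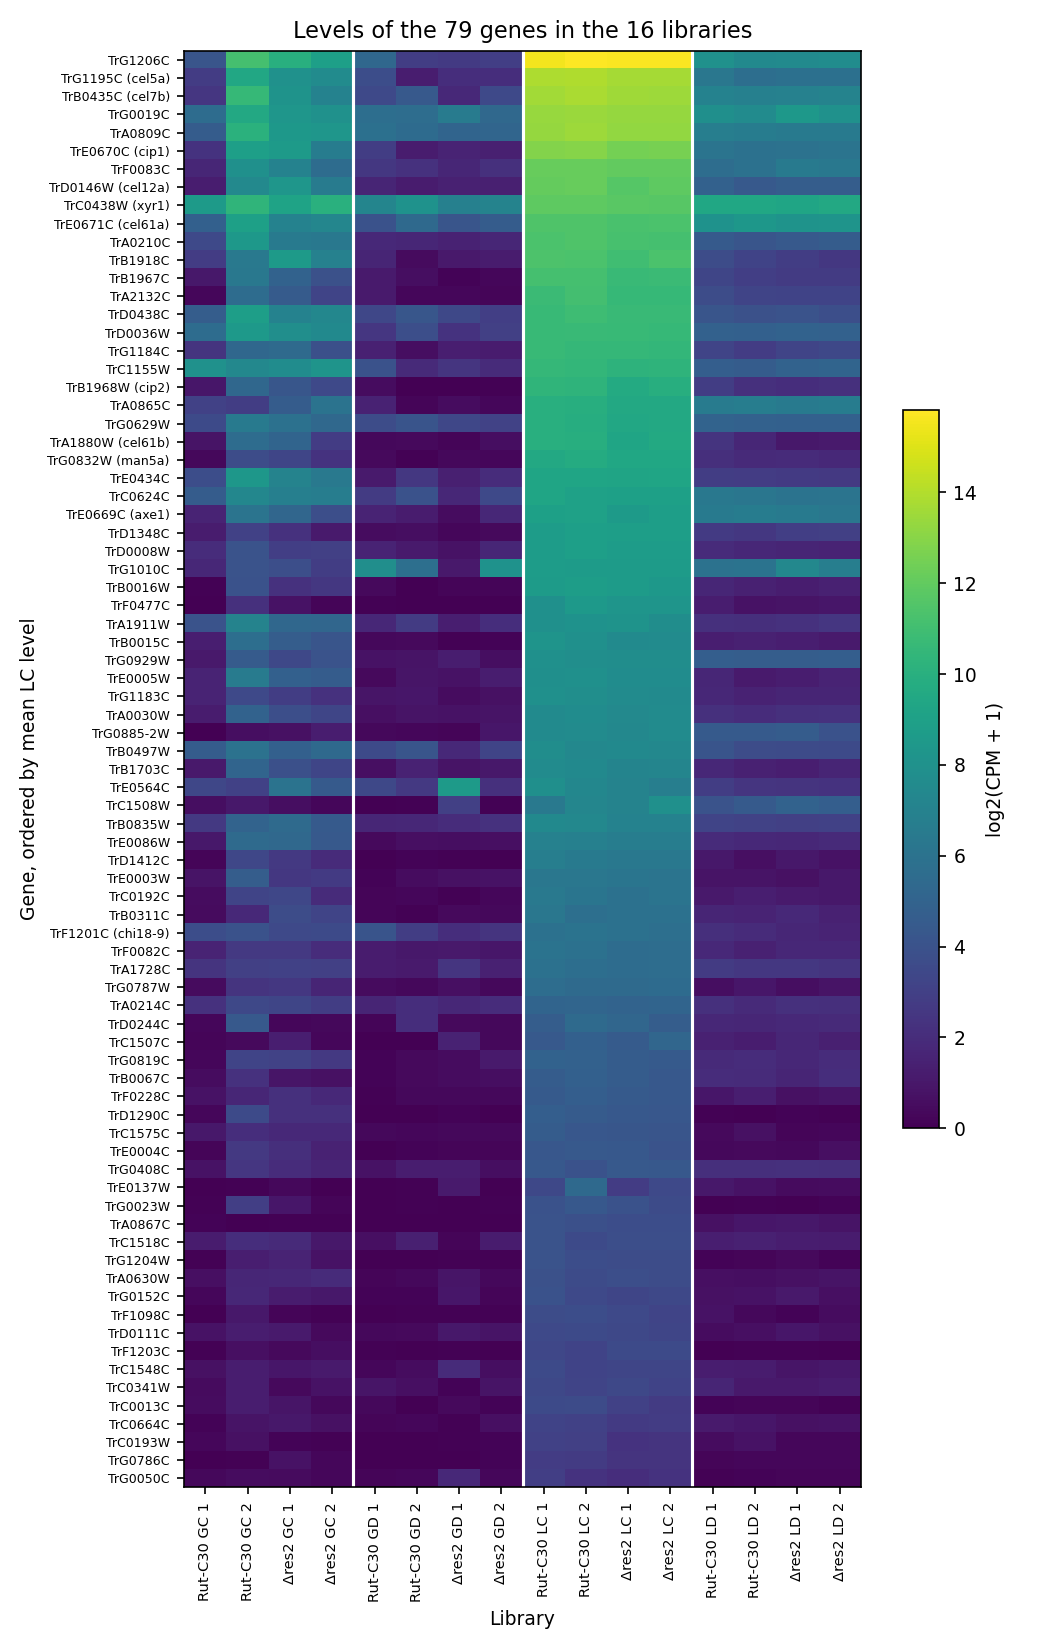
Levels of the 79 genes as log2(CPM + 1) in the 16 libraries, ordered from top to bottom by mean LC level. The 4 LC libraries are the brightest in 78 of the 79 rows, TrE0564C being the exception, and the second Rut-C30 GC library is brighter than the first for 75 of the 79 genes.

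The set included *xyr1* (TrC0438W, plus strand of chromosome III from 1447710 to 1450659), the main activator of cellulase and hemicellulase genes. Its level was 397 and 1279 CPM in Rut-C30 GC and 570 and 1032 CPM in Δ*res2* GC. In LC it was 3776 and 3824 CPM in Rut-C30 and 3518 and 3368 CPM in Δ*res2*, 4.42 times the GC mean. *xyr1* was thus well expressed in each GC library, in contrast to most of the enzyme genes below. In LD it was 673 and 673 CPM in Rut-C30 and 638 and 759 CPM in Δ*res2*, which is 18.9% of the LC level, and in GD it was 147 and 270 CPM and 118 and 133 CPM. Its LD level was close to that of GC, where the libraries of the 2 conditions overlapped.

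Of the other regulator genes looked up, *vib1*, *hom3* and *ace1* could be paired with a gene and were not members, and *cre1* could not be paired. *vib1* (TrE0539W), known as a regulator of cellulase genes, had a mean of 203 CPM in LC and 18.0 CPM in LD, but its LC/GC log2 ratio of 0.99 left it outside. *ace1* (TrG0785W), described as a repressor of cellulase genes, had 473 CPM in LC and 1660 CPM in LD. None of the 4 genes of the secretory pathway that were looked up (*bip1*, *pdi1*, *hrd1* and *lcl2*) was a member, and the LD mean of each lay above its LC mean.

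The Gene Ontology term carbohydrate metabolic process was attached to 22 members, and these had a median log2 ratio of 4.61 for LC/GC and -6.54 for LD/LC. The highest level per coding length belonged to TrG1206C (TRIREDRAFT_72567, minus strand of chromosome VII from 3805219 to 3806829), which carries terms of cellulose and β-glucan catabolism, at 37685 CPM per kb. It had 46936 and 57752 CPM in Rut-C30 LC and 53919 and 54839 CPM in Δ*res2* LC. In LD, its 4 libraries held 182 to 255 CPM, or 0.39% of the LC level. In GC it ranged from 16.8 CPM in Rut-C30 replicate 1 to 2311 CPM in replicate 2, with 1013 and 490 CPM in Δ*res2*, and in GD from 5.50 to 37.6 CPM.

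Endoglucanases cut within the cellulose chain, and 3 members with a symbol code for such enzymes. *cel5a* (TrG1195C) had 13177 to 15918 CPM in LC and 50.7 to 76.5 CPM in LD. In GC it had 6.08 and 727 CPM in Rut-C30 and 253 and 198 CPM in Δ*res2*. *cel7b* (TrB0435C) had 11521 to 14552 CPM in LC and 118 to 134 CPM in LD, with 4.73 and 1529 CPM in the Rut-C30 GC libraries. For both genes the LD libraries thus lay between the 2 Rut-C30 GC libraries. *cel12a* (TrD0146W) had 3262 to 4471 CPM in LC, 20.4 to 29.4 CPM in LD and 1.31 to 2.05 CPM in GD.

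The 2 members coding for lytic polysaccharide monooxygenases, which cleave cellulose by oxidation, differed in how much transcript was left with DTT. *cel61a* (TrE0671C) had 2496 to 2853 CPM in LC and 267 to 336 CPM in LD, 10.9% of the LC level. *cel61b* (TrA1880W) had 633 to 997 CPM in LC and 1.04 to 4.16 CPM in LD, 0.26% of the LC level, which was the smallest share among the members. The cellulose-induced protein genes *cip1* (TrE0670C) and *cip2* (TrB1968W) had 5845 to 7996 CPM and 811 to 1292 CPM in LC, and kept 0.92% and 0.38% of these levels in LD.

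The set also included genes for hemicellulose. *axe1* (TrE0669C), coding for an acetyl xylan esterase, had 399 to 524 CPM in LC and 76.6 to 98.5 CPM in LD, so that 18.4% was left. *man5a* (TrG0832W), coding for a mannanase, had 673 to 834 CPM in LC and 2.49 to 3.30 CPM in LD, so that 0.39% was left. These lay near the opposite ends of the range. The term xylan catabolic process was attached to 4 members, TrB1918C, TrA2132C, TrD0008W and TrE0434C, which kept between 0.32% and 0.92% of their LC level. TrB1918C had the lowest log2 LD/LC of all members, -8.12.

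Further carbohydrate genes were TrG0019C, with 10146 to 10873 CPM in LC, and TrA0809C, with 9643 to 11361 CPM, the latter with terms of β-glucan catabolism. TrF0477C, with terms of cell wall organization, had the highest log2 LC/GC of the set, 7.21: its GC libraries held 0 to 3.55 CPM and its LC libraries 250 to 379 CPM. Next in LC/GC came TrG0885-2W (6.87), TrD1348C (6.71), *man5a* (6.66) and TrC1508W (6.62). Another 2 members belong to glycoside hydrolase family 18, which holds chitinases. *chi18-9* (TrF1201C) had 54.6 to 62.7 CPM in LC and 1.94 to 3.33 CPM in LD, and TrA1911W (TRIREDRAFT_120953), a putative member of that family, had 213 to 273 CPM in LC and 3.45 to 4.73 CPM in LD.

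Transmembrane transport was the term of 9 members, with a median log2 ratio of 2.98 for LC/GC and -4.13 for LD/LC. TrD0036W (TRIREDRAFT_50894) took most of their counts, with 1571 to 1719 CPM in LC, 27.7 to 30.6 CPM in LD, 47.7 to 372 CPM in GC and 3.88 to 12.7 CPM in GD. TrC1508W had 81.5 and 151 CPM in Rut-C30 LC and 134 and 246 CPM in Δ*res2* LC, so its duplicates differed more than those of TrD0036W. Its GC libraries all held under 1 CPM. Only 2 members carried a term of amino acid metabolism, TrD0111C and TrE0564C.

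Numbers, symbols and terms were reached only through the study's lists of differentially expressed genes. A gene that those lists omit counts here as without one, whatever its annotation elsewhere. A TRIREDRAFT number was found for 70 of the 79, a RefSeq symbol for 11 and a Gene Ontology term for 39. Some of these terms were general, such as biological process alone for TrA0865C. The 31 members with a number but no term had 70.0 CPM as median LC level and -3.76 as median log2 LD/LC. For the 9 members without a number these values were 9.08 CPM and -2.27. Among the 40 members without a term, the highest LC levels were those of *cel61a*, TrA0210C (TRIREDRAFT_121418) and TrD0438C (TRIREDRAFT_80240), which together took 49.5% of the LC counts of the 40, the last with 1630 to 1895 CPM in LC and 12.6 to 17.3 CPM in LD.

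The level left in lactose with DTT varied among members from 0.26% to 24.2% of LC. In LD, 26 members kept under 1% of their LC level, 53 under 5% and 63 under 10%. The 19 members with at least 1000 CPM in LC, which held 93.1% of the members' LC counts, kept a median of 0.87%. The 25 members between 100 and 1000 CPM kept 1.82%, the 26 between 10 and 100 CPM 4.23%, and the 9 under 10 CPM 6.59%. Within the first of these classes, *xyr1* (18.9%) and *cel61a* (10.9%) lay above the other 17, of which TrG0019C at 2.47% was the highest. The LD mean was below the GC mean for 61 members (63.1% of all genes), and for 18 of the 19 with at least 1000 CPM in LC, the exception being *cel61a*. Both conditions were used to choose the genes. The GC mean also joins unlike libraries: of the 4, Rut-C30 GC replicate 2 was the highest for 58 of the 79 members and replicate 1 the lowest for 66.

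**Figure D3:**
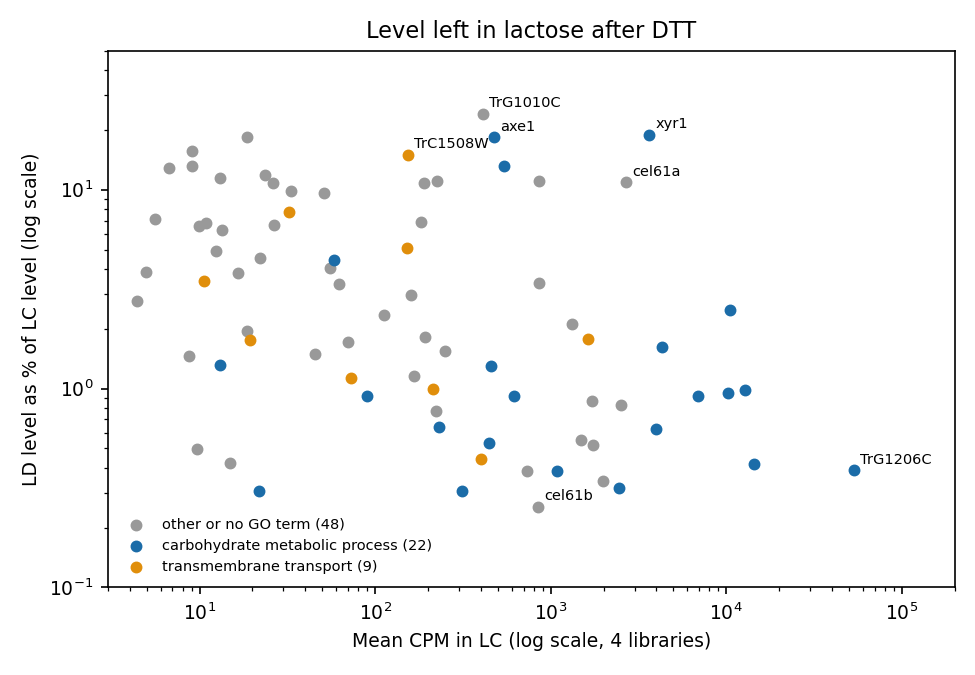
Mean LD level as a percentage of the mean LC level (log scale) against the mean LC level in CPM (log scale, 4 libraries each), with 1 point for each of the 79 genes, coloured by Gene Ontology term. Most genes above 1000 CPM lie near or under 1%, while xyr1 (18.9%), cel61a (10.9%), axe1 (18.4%) and TrG1010C (24.2%) lie well above them.

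Whether DTT also lowered these transcripts without lactose was compared in the 8 glucose libraries. The GC libraries were used to choose the genes, which had to be low there relative to LC, and the GD libraries were not. With edgeR's quasi-likelihood test and Benjamini-Hochberg adjustment over 8966 genes, 45 of the 74 members that passed the filter on low counts were lower in GD at an adjusted p under 0.05, and 0 were higher (15.6% of all genes were lower and 16.2% higher). At an unadjusted p under 0.05, 57 were lower (22.8% of all genes) and 1 was higher (22.4% of all genes). The fold change was below 0 for 69 of the 74, with a median log2 of -3.14 against 0.01 for all genes. By mean CPM, GD lay below GC for 74 of all 79 members (63.2% of all genes). With the stricter limits of the study (adjusted p under 0.005, log2 fold change beyond 2, mean of at least 100 normalized counts) 1 member was called lower (1.46% of all genes) and 0 higher (2.55% of all genes), and DESeq2 called 30 lower (5.24% of all genes) and 1 higher (5.98% of all genes) at the same limits. The 5 members left out by the filter, TrA0867C, TrC0193W, TrE0137W, TrF1098C and TrG0786C, had mean levels of at most 0.331 CPM in GC and GD.

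The gene past the stricter limits was TrC1155W (TRIREDRAFT_106171, plus strand of chromosome III from 3922563 to 3924887, 1 exon), for which no term was found. Its level was 258 and 165 CPM in Rut-C30 GC and 203 and 294 CPM in Δ*res2* GC, and 15.1 and 2.62 CPM in Rut-C30 GD and 4.52 and 2.79 CPM in Δ*res2* GD. Each GC library lay above each GD library, and the duplicates in GC were close, unlike those of most members. The log2 fold change was -4.88 ± 0.66 (SE, adjusted p = 0.00375). The 5 lowest fold changes were those of *cip2* (TrB1968W, -7.06 ± 1.47, adjusted p = 0.0136), TrB0015C (-6.80 ± 1.14, 0.00679), TrD1290C (-6.66 ± 1.40, 0.0139), TrD1412C (-6.18 ± 1.35, 0.0154) and *cip1* (TrE0670C, -6.00 ± 1.43, 0.0203). Without Rut-C30 GC replicate 2, TrD1412C was at -3.84 (adjusted p = 0.028) and *cip1* at -3.11 (adjusted p = 0.0322). An adjusted p under 0.05 was lost on leaving out 1 library in 3 of 8 cases for TrD1412C (either Rut-C30 GD library or Δ*res2* GC replicate 1), in 5 of 8 for *cip1* (any GD library or Δ*res2* GC replicate 1) and in 1 of 8 for TrD1290C (Rut-C30 GD replicate 1), and in none for TrC1155W, *cip2* and TrB0015C.

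*xyr1* (TrC0438W) also fell in GD, by 1.88 ± 0.47 on the log2 scale (adjusted p = 0.0235). *cel5a* (TrG1195C) fell by 5.39 ± 1.40 (adjusted p = 0.0264) and *cel7b* (TrB0435C) by 4.75 ± 1.45 (adjusted p = 0.0447). Without Rut-C30 GC replicate 2, the log2 fold change was -2.52 for *cel5a* (adjusted p = 0.0569) and -1.17 for *cel7b* (adjusted p = 0.226). Both genes stayed under an adjusted p of 0.05 in 1 of the 8 cases of leaving out a library, that of Rut-C30 GC replicate 1, and *xyr1* in 3 of the 8 (without Rut-C30 GC replicate 1, Δ*res2* GC replicate 1 or Δ*res2* GD replicate 2). The transporter-annotated TrD0036W fell by 4.40 ± 0.73 (adjusted p = 0.00657). By group, 17 of the 22 carbohydrate genes, 10 of the 11 genes with a RefSeq symbol and 5 of the 8 tested transport genes were lower at an adjusted p under 0.05 (15.6% of all genes). Terms and symbols were reached only through the study's lists of differentially expressed genes. Those lists came from the same libraries, with GD/GC among the comparisons, so the group counts are descriptions only. The gene with a symbol that did not pass was *chi18-9* (TrF1201C, -0.40 ± 0.40), which held 10.2 to 14.5 CPM in GC and 3.15 to 16.3 CPM in GD.

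Another 5 members had a fold change above 0, and none of them passed. TrG1010C (TRIREDRAFT_104227, minus strand of chromosome VII from 3300174 to 3300620) held 2.38 to 15.2 CPM in GC, and in GD 229 and 54.5 CPM in Rut-C30 and 1.13 and 262 CPM in Δ*res2*. Of its GD libraries, 3 of the 4 were thus above all GC libraries and 1 below all of them, and the log2 fold change was 4.52 ± 1.51 (adjusted p = 0.0567). It was 0.84 (adjusted p = 0.448) without Δ*res2* GD replicate 2 and 4.996 (adjusted p = 0.0108) without Δ*res2* GD replicate 1, the low library. TrE0564C, with an amino acid term, held 400 CPM in Δ*res2* GD replicate 1 and 3.52 to 9.94 CPM in the other 3 GD libraries (log2 fold change 1.39 ± 1.04, adjusted p = 0.336, with -1.30 without that library and 1.88, at an adjusted p of 0.0272, without replicate 2). The other 3 were TrG0050C (1.03 ± 0.73), TrC0341W (0.25 ± 0.78) and TrG0885-2W (0.10 ± 0.98), at an adjusted p of 0.310 to 0.948.

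The count of 45 depended on the libraries. It was 27 without Rut-C30 GC replicate 2, 9 and 13 without either Rut-C30 GD library, 15 and 28 without either Δ*res2* GC library, and 25 without Δ*res2* GD replicate 1. The median log2 fold change stayed between -3.43 and -2.99 without any other library and was -1.77 without Rut-C30 GC replicate 2, the library with the highest GC levels. At the stricter limits, 14 members were called without Rut-C30 GC replicate 1, with TrC1155W not among them (adjusted p = 0.00749), and 0 without any 1 of the other 7 libraries. On CPM alone, the highest GD library lay below the lowest GC library for 35 of the 79 members (25.0% of all genes).

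**Figure D4:**
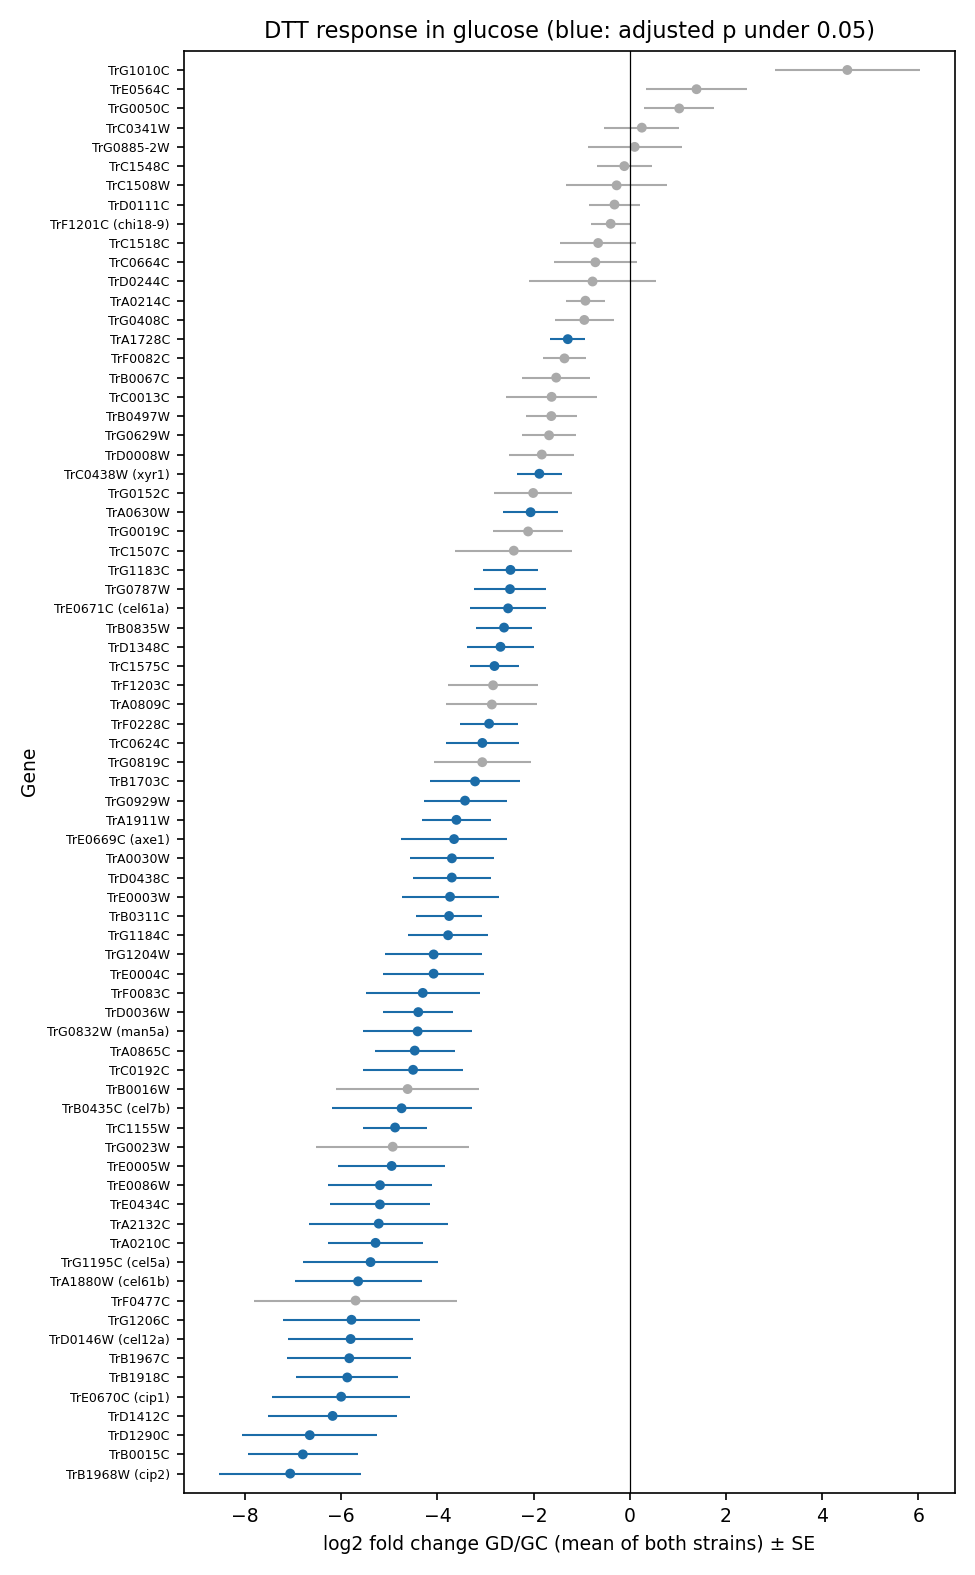
log2 fold change of GD over GC, as the mean of both strains with its SE, for the 74 genes tested, ordered by fold change. The points in blue, 45 genes at an adjusted p under 0.05, all lie below 0, and TrG1010C lies highest at 4.52.

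With DTT in both cultures, lactose was compared with glucose as LD/GD, in a fit of all 16 libraries. All 79 members passed the filter on low counts there, which they could do through LC, where the rule made them high. They include those that the filter left out of the glucose fit. The spread in this fit is pooled over glucose and lactose, so the SE and p-values do not measure that of GD alone. LD libraries were used to choose the genes, which had to be low there, and GD libraries were not. The fold change was above 0 for 74 of the 79 members, with a median log2 of 2.12 against -0.08 for all genes. By mean CPM, LD lay above GD for 74 members (45.5% of all genes). At an adjusted p under 0.05, 39 were higher in LD (6.32% of all genes) and 3 were lower (8.01% of all genes). At the stricter limits, 5 were higher (0.396% of all genes) and 0 lower (0.341% of all genes), while DESeq2 called 22 higher (0.824% of all genes) and 1 lower (1.03% of all genes). At an unadjusted p under 0.05, 50 were higher (12.4% of all genes) and 3 lower (17.6% of all genes). On CPM alone, all 4 LD libraries lay above all 4 GD libraries for 52 members (9.81% of all genes).

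The 5 genes were TrA0865C, TrC1508W, *axe1*, TrG0885-2W and TrG0929W. TrA0865C (TRIREDRAFT_110666) had 88.8 to 101 CPM in LD and 0.16 to 1.90 CPM in GD, a log2 fold change of 7.30 ± 0.69 (adjusted p = 0.000236). *axe1* (TrE0669C) had 0.44 to 2.46 CPM in GD, and its log2 fold change was 5.69 ± 0.95 (adjusted p = 0.0042). TrG0885-2W had 14.7 to 23.7 CPM in LD and 0.15 to 0.96 CPM in GD (5.68 ± 0.66, adjusted p = 0.000768). In each of these the LD and GD libraries were well apart. TrG0929W gave 4.87 ± 0.71 (adjusted p = 0.00233). TrC1508W gave 6.04 ± 0.95 (adjusted p = 0.00332), with 15.6 to 29.8 CPM in LD and, in GD, at most 0.0655 CPM in 3 libraries and 6.88 CPM in Δ*res2* replicate 1. On leaving out 1 of the 16 libraries, only TrA0865C stayed past the stricter limits in each case. The call was lost in 13 of the 16 cases for *axe1*, in 10 each for TrC1508W and TrG0929W and in 3 for TrG0885-2W. The log2 fold change then ran from 5.28 to 6.74 for *axe1* and from 5.57 to 8.87 for TrC1508W. It ran from 4.67 to 5.20 for TrG0929W and from 5.24 to 6.80 for TrG0885-2W.

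For the regulator *xyr1* (TrC0438W), LD was higher than GD by 2.03 ± 0.37 on the log2 scale (adjusted p = 0.00649). The 3 members that were lower in LD than in GD were TrE0564C (-3.02 ± 0.90, adjusted p = 0.0459), TrG0050C (-2.13 ± 0.62, adjusted p = 0.0438) and *chi18-9* (TrF1201C, -1.44 ± 0.30, adjusted p = 0.0114). For TrE0564C and TrG0050C, Δ*res2* GD replicate 1 held 400 and 2.60 CPM, against at most 9.94 and 0.23 CPM in the other GD libraries. Without that library, LD/GD was -0.32 for TrE0564C (adjusted p = 0.604) and -0.90 for TrG0050C (adjusted p = 0.23), and both calls were lost with most other libraries left out too, in 15 and 14 of the 16 cases in all. *chi18-9* was at -0.96 without Rut-C30 GD replicate 1 (adjusted p = 0.0217) and lost the call in 2 of the 16. The count of 42 members in both directions was 27 and 20 without either Rut-C30 GD library, 20 and 18 without either Rut-C30 LD library, and 19 and 18 without either Δ*res2* LD library. The count of 5 at the stricter limits was 20 and 19 without either Rut-C30 GC library, 9 without Δ*res2* GD replicate 2, and 1 or 2 without any 1 of the Rut-C30 GD, LC and LD and the Δ*res2* LC and LD libraries.

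Deletion of *res2* was compared within each condition. In lactose, where the duplicates were close (biological coefficient of variation 0.0711, against 0.494 in glucose), the median absolute log2 difference between the strains was 0.12 in LC and 0.25 in LD. These correspond to 1.09-fold and 1.19-fold, and the median SE was 0.13 in LC and 0.21 in LD. The filter on low counts took LC and LD libraries together, so members scarce in LD were tested there through their LC counts. In LC, 6 of 79 members passed at an adjusted p under 0.05 (13.9% of all genes), 2 higher in Δ*res2* (7.99% of all genes) and 4 lower (5.94% of all genes). In LD 7 passed (13.3% of all genes), 6 higher (9.82% of all genes) and 1 lower (3.48% of all genes). The response to DTT in lactose differed between the strains for 3 members (3.94% of all genes), all 3 with a higher log2 LD/LC in Δ*res2* (2.61% of all genes) and 0 with a lower one (1.33% of all genes), by edgeR and by DESeq2. At an unadjusted p under 0.05, 10 were higher (9.79% of all genes) and 4 lower (5.65% of all genes).

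In LC, TrF1203C had 9.17 and 8.23 CPM in Rut-C30 and 10.6 and 10.8 CPM in Δ*res2* (log2 0.50 ± 0.14, adjusted p = 0.0273). TrG0408C was also higher in Δ*res2*, by 0.44 ± 0.11 (adjusted p = 0.012). The 4 lower genes were TrC0193W (-0.59 ± 0.18, adjusted p = 0.0451), TrC0013C (-0.57 ± 0.17, adjusted p = 0.0388), TrB0015C (-0.27 ± 0.08, adjusted p = 0.0292) and the transport gene TrB0835W (-0.24 ± 0.07, adjusted p = 0.0312). All these differences were under 2-fold. The 2 largest differences did not pass, since the duplicates of TrE0137W (9.72 and 40.6 CPM in Rut-C30, 5.91 and 10.0 CPM in Δ*res2*, log2 -1.51 ± 0.83) and TrC1508W (0.88 ± 0.50) were far apart. TrE0137W was at -2.26 without Rut-C30 LC replicate 1 (adjusted p = 8.53e-05) and at -0.00499 without replicate 2. The count of 6 was 4 and 9 without Rut-C30 LC replicate 1 and 2, and 0 without either Δ*res2* LC library.

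In LD, TrG1010C had 60.1 and 64.4 CPM in Rut-C30 and 163 and 109 CPM in Δ*res2* (log2 1.32 ± 0.17, adjusted p = 0.00143), while its LC levels of 401 to 419 CPM overlapped between the strains. TrF0083C, with terms of β-glucan catabolism, had 49.9 and 59.6 CPM in Rut-C30 and 89.9 and 80.5 CPM in Δ*res2* (0.82 ± 0.12, adjusted p = 0.000319). TrC1155W had 25.0 and 22.8 CPM in Rut-C30 and 30.4 and 33.6 CPM in Δ*res2* (0.61 ± 0.10, adjusted p = 0.000872). These 3 genes kept a larger share of their LC level in Δ*res2* by the test of that difference, at 1.11 ± 0.24 (adjusted p = 0.0432), 0.76 ± 0.17 (adjusted p = 0.0182) and 0.65 ± 0.14 (adjusted p = 0.0137) on the log2 scale. TrG0019C (0.66 ± 0.15, adjusted p = 0.00772), TrD1348C (0.55 ± 0.14, adjusted p = 0.0197) and TrG1184C (0.52 ± 0.15, adjusted p = 0.0337) were also higher in LD. TrG0019C was at 0.43 (adjusted p = 0.143) without Δ*res2* LD replicate 1, and TrG1184C at 0.28 (adjusted p = 0.315) without Rut-C30 LD replicate 2 and 0.80 without replicate 1. On leaving out 1 of the 8 lactose libraries, TrG0019C lost the call in LD in 2 cases, TrD1348C in 4 and TrG1184C in 5. TrG1010C, TrF0083C and TrC1155W kept it in each case. They lost the call for the difference of LD/LC in 6, 4 and 5 of the 8 cases, in this order. That difference ran from 0.78 to 1.39 for TrG1010C, 0.64 to 0.89 for TrF0083C and 0.58 to 0.72 for TrC1155W.

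The 1 gene lower in Δ*res2* LD was *cel61b* (TrA1880W), with 4.16 and 2.21 CPM in Rut-C30 and 1.04 and 1.21 CPM in Δ*res2* (log2 -1.30 ± 0.34, adjusted p = 0.0349). The call was lost with a replicate block (adjusted p = 0.0582), in the fit of all 16 libraries (adjusted p = 1.0) and in 5 of the 8 cases of leaving out a lactose library, where the fold change ran from -1.70 without Rut-C30 LD replicate 2 to -0.79 without replicate 1. Another 4 members differed by more than 1 on the log2 scale without passing, TrC0193W (-1.27 ± 0.43), TrD1290C (1.13 ± 0.77), TrC1575C (-1.13 ± 0.44) and TrG0050C (1.03 ± 0.77), all under 1 CPM in each LD library. *xyr1*, *cel5a*, *cel7b* and TrG1206C passed in neither condition. The count of 7 in LD was 3 and 4 without either Δ*res2* LD library. The count of 3 for the response was 0 without Rut-C30 LD replicate 1 or either Δ*res2* LC library, and 2, both higher, without Rut-C30 LC replicate 2 or either Δ*res2* LD library. Without Rut-C30 LD replicate 2 it was 1 higher (TrF0083C) and 1 lower, the latter being *cel61b* (-1.39, adjusted p = 0.0193).

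**Figure D5:**
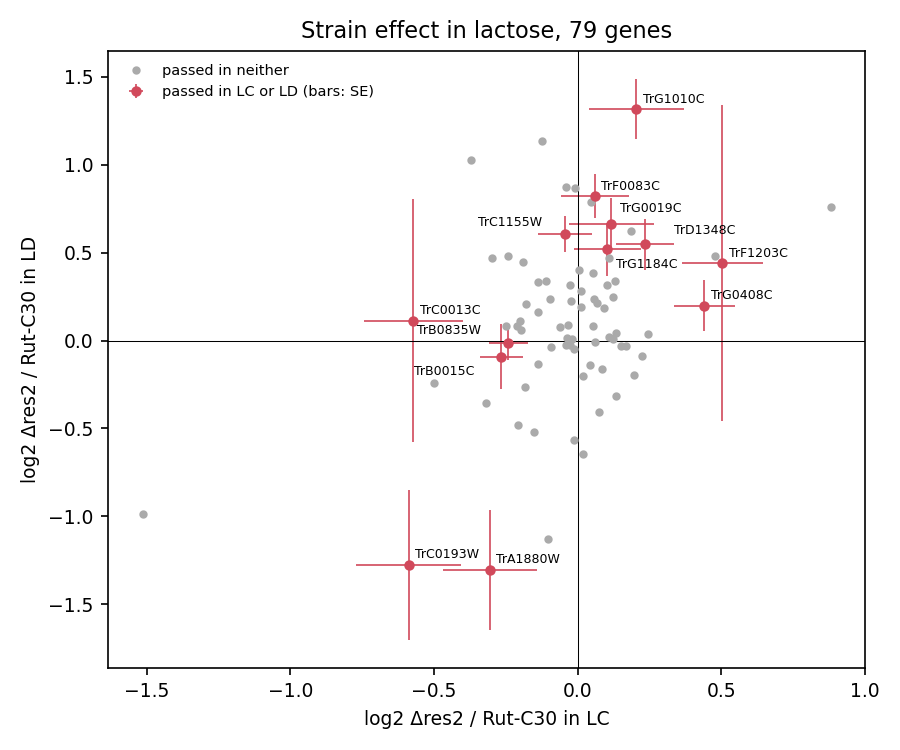
log2 of Δ*res2* over Rut-C30 in LC and in LD for the 79 genes, with SE bars on the 13 genes that passed in LC or LD. Most genes lie close to 0 on both axes, and TrG1010C (1.32) and TrA1880W (-1.30) lie farthest from 0 in LD among those that passed there.

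In glucose, 0 of the 74 tested members differed between the strains in GC, in GD or in the response to DTT (0.0% of all genes in each), by edgeR and by DESeq2. At an unadjusted p under 0.05, 3 members did in GC (1.25% of all genes), 6 in GD (2.55% of all genes) and 3 in the response (0.792% of all genes). The strain difference of LC/GC gave 0 members (0.011% of all genes), 4 at an unadjusted p under 0.05 (2.49% of all genes) and 0 by DESeq2, but 9 without Rut-C30 GC replicate 2. The spread of the glucose duplicates limits these comparisons, with a median SE of 1.13 for the strain effect in GC and 1.26 in GD on the log2 scale.

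The members were spread over all 7 chromosomes of the deposited QM6a annotation, which places 78 of them. Chromosome VII held 17 (21.5%, against 11.2% of all placed genes), and chromosome I held 11 (13.9% against 19.8%). A member lay directly beside another for 20 of the 79 (25.3%), while 1.53% of all placed genes lay beside a member. With the genes set aside by name included, 22 members lay in 11 runs of 2 or 3 neighbouring genes. Of the neighbouring pairs, 8 were transcribed away from each other, 4 on the same strand and 1 towards each other. The shares of these orientations among all neighbouring genes were not taken, so the counts are not a trait of the set.

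The longest runs had 3 genes and lay on chromosome V. *axe1*, *cip1* and *cel61a* (TrE0669C to TrE0671C) followed each other on the minus strand between 2216541 and 2222382. In LD they kept 18.4%, 0.92% and 10.9% of their LC level, so neighbours of 1 strand differed in what DTT left. The second run, TrE0003W, TrE0004C and TrE0005W, began at position 4915, near the start of the chromosome sequence, and held a transport gene. *cip2* (TrB1968W) was divergent from TrB1967C, 2018 bp away, with 0.38% and 0.34% left in LD. The transport genes TrB0016W and TrC1508W were divergent from TrB0015C, a carbohydrate gene, and TrC1507C. Members had a median coding length of 1380 bases and 3 exons, against 1218 bases and 2 exons for all genes.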

How the data were processed

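RNA of 16 cultures was sequenced, 2 for each of 8 groups of strain and condition. The deposited values were counts, 1 whole number for each of 10008 genes and library. According to the labels and the study's methods, the authors aligned reads to the QM6a genome with STAR 2.7.8a, kept reads with 1 alignment and assigned them to coding sequences with HTSeq 0.5.3, so that genes that share sequence may be undercounted. Nothing was normalized before deposit. The strand setting of the counting was not given in the sources used here. Gene positions came from the deposited annotation (9847 genes). TRIREDRAFT numbers and Gene Ontology terms came from the study's supplementary tables of differentially expressed genes (1729 genes numbered, term lists partly shortened). Symbols came from RefSeq through those numbers.

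CPM were computed from all counts of a library. Tests ran in R 4.3.3 through edgeR 4.0.16, which calls limma 3.58.1 (filterByExpr, TMM, robust quasi-likelihood F test), with p adjusted over all fitted genes. The 8 glucose libraries (8966 genes), the 8 lactose libraries (8889 genes) and all 16 (9101 genes, for LD/GD and the strain difference of LC/GC) were fitted apart, because glucose duplicates varied far more. The filter used all libraries of a fit, so members could pass it through LC in every fit but that of glucose. The SE is the log2 fold change divided by the square root of F. Methods were tested on simulated data. GD/GC and LD/GD were called at the study's limits and also at an adjusted p under 0.05, strain effects at an adjusted p under 0.05. p-values measure the spread between 2 cultures a group. For LD/GD and the strain difference of LC/GC, this spread was pooled over glucose and lactose, and is that of neither sugar alone.

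Members and lists were chosen with earlier results of these data known. The genes named are those the paper names, the highest in LC, the extremes of each ratio and strain effect, those nearest to the limits and neighbours; others were chosen after their values were seen. Lists by product name, promoter motifs and protein features had been planned and were not run, as the tables used here hold neither product names nor sequences, and Gene Ontology groups took their place. A further regulator gene that was looked up is not reported here. The plan also named TrG0399C as *res2*, but this gene is *bip1*. Alternatives were DESeq2 1.42.0, its size factors, a wider filter, 1 fit of all libraries, a replicate block, other limits, other pseudocounts (5 and 0.1) and each library left out.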

Additional observations from a re-analysis of the deposited data

Results flagged for a closer look

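The response to DTT in lactose (log2 LD/LC) differed between the strains for 3 members by the test of the difference itself, and in each it was less negative in Δ*res2*. These were 3.8% of the members tested, close to the 3.94% of all genes that passed, and none of the members passed without Rut-C30 LD replicate 1 or without either Δ*res2* LC library. The difference was 0.65 for TrC1155W, 0.76 for TrF0083C and 1.11 for TrG1010C. In the fit of all 16 libraries, whose spread is larger, none of the 3 passed (0.59, 0.71 and 1.06, each with an adjusted p of 1.0). In that of the lactose libraries by DESeq2 all 3 passed (0.62, 0.73 and 1.08).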

How the results depend on the processing

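The members numbered 50 with a pseudocount of 5, 104 with 0.1 and 109 with TMM-scaled library sizes, and 72 to 91 without 1 library; from the Rut-C30 libraries alone 87 genes met the rule (74 of them members), and from the Δ*res2* libraries alone 77 (69 members). For GD/GC, the count of 1 at the stricter limits became 31 with DESeq2, 28 in the fit of all 16 libraries, 45 at an adjusted p under 0.05 alone and 0 with a replicate block, and 0 to 14 without 1 library; the wider count ranged from 9 to 55. For LD/GD, 5 became 23 with DESeq2 and 42 at an adjusted p under 0.05, 4 with the block, and 1 to 20 without 1 library, and the wider count ranged from 18 to 52. The strain effect in LC (6) gave 3 with DESeq2, 0 in the fit of all 16 libraries, 7 with the block and 0 to 9 without 1 library. That in LD (7) gave 0 in the fit of all libraries, 8 with DESeq2 and 3 to 8 without 1 library, and the strain difference of LD/LC (3) gave 0 in that fit and 0 to 3 without 1 library. Leaving out 1 library gave 0 to 9 for the strain difference of LC/GC and 0 in each case for the glucose strain effects and the strain difference of GD/GC. Leaving out 1 library, the log2 GD/GC of TrC0341W lay between -1.003 and 0.76, of TrE0564C between -1.30 and 1.88, of TrG0050C between -0.19 and 1.44, of TrG1010C between 0.84 and 5.38 and of TrG0885-2W between -1.05 and 2.72, and that of TrG0885-2W was -0.038 in the fit of all libraries. Of 700 single values recomputed for the named genes, 491 kept direction and call, 194 lost the call, 6 gained it and 9 changed direction, where the call was that at the stricter limits for the genes past them and an adjusted p under 0.05 for the others. The causes were not tested. Replicate numbers were not used to pair the libraries in the main tests. Of 28 pairs of groups, 6 had a correlation of same-numbered deviations above 0.1 (-0.32 to 0.64). The highest, 0.64, was that of Rut-C30 GC and GD, which GD/GC compares, while that of Δ*res2* GC and GD was -0.01. Same-numbered Rut-C30 glucose libraries thus deviated together, which only the fits with a replicate block took into account. Members near 1 CPM in GC and GD had few counts, and each group held 2 cultures.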
